A study of Mus musculus with 13 samples.

Results

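Accessible chromatin was examined around 5 T-box transcription factor genes of the mouse limb, Tbx2, Tbx3, Tbx5, Tbx15 and Tbx18. A region was included when its strongest summit lay within 100 kb of the body of one of these genes (GENCODE M21 annotation on mm10), irrespective of its values, and a region in reach of both Tbx2 and the neighbouring gene Tbx4 was given to the nearer of them and kept only for Tbx2. Over 13 ATAC-seq libraries 879 of 1360342 called regions met this rule, with 260 at Tbx15, 179 at Tbx18, 171 at Tbx2, 168 at Tbx5 and 101 at Tbx3. Joined across the 12 libraries that were compared, they made 162 of 252026 consensus regions. Of these, 92 passed a filter on low values and entered the tests, among 137405 tested in all. The 92 comprised 28 of 52 regions at Tbx15, 20 of 28 at Tbx18, 17 of 28 at Tbx2, 16 of 34 at Tbx5 and 11 of 20 at Tbx3.

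In ATAC-seq the transposase Tn5 inserts sequencing adapters where DNA is not covered by nucleosomes, so that insertions pile up at promoters and enhancers that are open. Each library was made from 50000 cells of E12.5 embryos (mouse, B6CBAF1), from 3 dissected tissues: distal forelimb (DFL, the future hand), proximal forelimb (PFL, the future arm) and forebrain (FB), which served as a tissue outside the limb. The 2 genotypes were wild type (wt) and allele 542 (label II1TDOM 542), whose embryos were homozygous for an insertion of the distal limb enhancer II1, with an HBB promoter and LacZ, as 1 copy on each chromosome beside the native II1, in the regulatory domain telomeric to the HoxD cluster (T-DOM). The 6 groups wt DFL, 542 DFL, wt PFL, 542 PFL, wt FB and 542 FB each held 2 replicates, which the study describes as pools of embryos, and 542 is 1 allele at 1 integration site. A further wt DFL library, labelled as a reanalysed earlier sample, is given only where it is named. A dissected tissue holds several cell types, so that fewer cells with an open region and a less open region in each cell cannot be told apart.

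T-box proteins share a DNA-binding domain, the T-box, which recognises a short element named after Brachyury, the founding member of the family. Tbx5 is the forelimb initiation gene, which acts upstream of Fgf10 and without which no forelimb bud forms, and mutations in human TBX5 cause the malformations of hand and heart known as Holt-Oram syndrome. Tbx2 and Tbx3 encode closely related repressors that are transcribed along the anterior and posterior margins of the limb bud, and mutations in human TBX3 cause ulnar-mammary syndrome. Tbx15 and Tbx18 form a pair in a separate subfamily, are transcribed in limb mesenchyme and are required in the growth of skeletal elements (Tbx15) and in the mesenchyme of the ureter and the sinus node (Tbx18).

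Regions are named here by the gene and the distance of the summit from its start, in kb, with positive values in the direction of transcription. The 10 named regions with the largest differences between tissues are shown first, each as the 300 bases around its summit on the + strand of mm10, with matches to any of 8 transcription factor motifs in capitals (the motifs are spelled out further on). Those highest in DFL were the Tbx15 +72.0 kb window at chr3:99312273-99312572, the Tbx15 +37.6 kb window at chr3:99277856-99278155 and the Tbx18 +20.8 kb window at chr9:87710262-87710561, all 3 in introns of the gene itself. Those highest in PFL were the Tbx5 −52.6 kb window at chr5:119779873-119780172, the Tbx5 +111.9 kb window at chr5:119944452-119944751 and the Tbx18 −42.8 kb window at chr9:87773923-87774222, all 3 intergenic. Higher in both limb tissues than in FB were the Tbx2 −92.9 kb window at chr11:85739528-85739827, in an intron of the neighbouring gene Bcas3, the intergenic Tbx18 +48.8 kb window at chr9:87682328-87682627 and the Tbx5 +34.4 kb window at chr5:119866914-119867213, in an intron of Tbx5. The intergenic Tbx18 −9.6 kb window at chr9:87740692-87740991 was highest in FB.
Tbx15 +72.0 kb: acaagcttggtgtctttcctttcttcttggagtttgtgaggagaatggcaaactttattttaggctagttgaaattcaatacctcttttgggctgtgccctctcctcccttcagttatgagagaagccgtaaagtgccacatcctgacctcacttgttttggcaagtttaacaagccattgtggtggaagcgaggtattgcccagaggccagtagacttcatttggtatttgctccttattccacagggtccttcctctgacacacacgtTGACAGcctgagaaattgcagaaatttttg
Tbx15 +37.6 kb: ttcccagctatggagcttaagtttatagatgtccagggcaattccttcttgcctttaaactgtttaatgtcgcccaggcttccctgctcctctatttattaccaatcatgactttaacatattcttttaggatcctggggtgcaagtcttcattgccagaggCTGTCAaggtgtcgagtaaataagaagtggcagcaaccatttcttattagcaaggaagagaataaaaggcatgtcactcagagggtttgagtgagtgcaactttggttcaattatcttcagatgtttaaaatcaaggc
Tbx18 +20.8 kb: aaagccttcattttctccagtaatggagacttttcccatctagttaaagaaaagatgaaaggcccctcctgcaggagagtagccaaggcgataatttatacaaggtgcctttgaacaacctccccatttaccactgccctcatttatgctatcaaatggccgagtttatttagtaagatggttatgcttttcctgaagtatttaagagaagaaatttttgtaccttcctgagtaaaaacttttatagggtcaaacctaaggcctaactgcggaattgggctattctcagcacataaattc
Tbx5 −52.6 kb: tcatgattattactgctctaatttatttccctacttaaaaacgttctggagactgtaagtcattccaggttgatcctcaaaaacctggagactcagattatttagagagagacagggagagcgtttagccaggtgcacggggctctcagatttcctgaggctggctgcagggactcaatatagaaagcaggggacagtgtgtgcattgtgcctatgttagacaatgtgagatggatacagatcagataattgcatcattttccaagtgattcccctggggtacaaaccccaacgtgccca
Tbx5 +111.9 kb: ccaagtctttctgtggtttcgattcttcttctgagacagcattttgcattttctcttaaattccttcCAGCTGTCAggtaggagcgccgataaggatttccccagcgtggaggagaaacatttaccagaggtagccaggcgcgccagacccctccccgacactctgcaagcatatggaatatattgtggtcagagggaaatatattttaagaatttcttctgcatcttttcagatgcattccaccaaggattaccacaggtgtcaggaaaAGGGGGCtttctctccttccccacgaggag
Tbx18 −42.8 kb: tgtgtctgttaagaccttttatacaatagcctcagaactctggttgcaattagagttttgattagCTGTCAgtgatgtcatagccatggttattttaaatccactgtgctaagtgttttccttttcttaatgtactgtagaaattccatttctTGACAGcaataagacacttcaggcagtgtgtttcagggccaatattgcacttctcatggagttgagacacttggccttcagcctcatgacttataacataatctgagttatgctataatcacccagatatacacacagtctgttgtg
Tbx2 −92.9 kb: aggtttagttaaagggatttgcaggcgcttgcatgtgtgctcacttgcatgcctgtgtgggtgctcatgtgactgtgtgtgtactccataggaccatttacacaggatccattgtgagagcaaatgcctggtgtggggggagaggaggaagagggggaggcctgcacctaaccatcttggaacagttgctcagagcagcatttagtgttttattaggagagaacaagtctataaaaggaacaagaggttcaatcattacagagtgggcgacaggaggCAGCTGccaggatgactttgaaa
Tbx18 +48.8 kb: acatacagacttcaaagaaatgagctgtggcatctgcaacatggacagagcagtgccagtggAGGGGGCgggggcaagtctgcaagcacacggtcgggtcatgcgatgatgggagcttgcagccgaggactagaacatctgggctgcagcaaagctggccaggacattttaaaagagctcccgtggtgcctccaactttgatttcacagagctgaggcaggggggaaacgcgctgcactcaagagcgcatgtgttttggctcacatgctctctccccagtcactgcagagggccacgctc
Tbx5 +34.4 kb: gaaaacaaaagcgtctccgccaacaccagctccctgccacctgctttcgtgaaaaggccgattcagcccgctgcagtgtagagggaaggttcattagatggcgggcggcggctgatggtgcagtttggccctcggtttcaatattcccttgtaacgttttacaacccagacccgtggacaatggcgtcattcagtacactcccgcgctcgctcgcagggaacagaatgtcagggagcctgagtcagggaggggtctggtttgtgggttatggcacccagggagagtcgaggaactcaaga
Tbx18 −9.6 kb: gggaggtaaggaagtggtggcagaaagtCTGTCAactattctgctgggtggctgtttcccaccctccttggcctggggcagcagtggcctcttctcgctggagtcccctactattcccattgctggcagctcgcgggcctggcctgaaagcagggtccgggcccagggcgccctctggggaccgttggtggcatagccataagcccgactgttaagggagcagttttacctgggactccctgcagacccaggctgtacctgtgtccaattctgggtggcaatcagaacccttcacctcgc

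The value of a region in a library was the fold deposited by the authors, the tags under its summit plus 1 over the local background plus 1. For the tests, the log2 folds were centred between libraries and a region that was not called in a library, or whose value was lower, was set to a common floor of log2 1.68, a fold of 3.19, so that differences against such a library are understated and do not follow from the printed folds alone. A region was tested when at least 2 libraries lay above the floor. Where fewer than 2 did so outside the group in which it was high, the region passed this filter only through that group and had to differ, and libraries at the floor have no spread, so that for such regions the folds and the difference are given without SE or a test. On simulated data for DFL against PFL, 38 of 211 calls (18%) were false, 35 of them at regions with a mean within 0.5 of the floor. Each simulated region had the spread of a region drawn at random, and far fewer changes were placed than were called in the data. The share of false calls in the data was therefore not measured, and adjusted p-values near the floor may be too small. Differences are given on this centred log2 fold scale with their standard error (SE) and the adjusted p of limma (Benjamini-Hochberg over all 137405 regions, threshold 0.05), with 4 libraries a tissue, both genotypes together, except where genotypes are compared. The 3 tissue comparisons share libraries and are therefore not independent of one another. The 12 libraries held an estimated 37.5 to 70.7 M (mega) tags and 85070 to 118297 regions. FB libraries were the deepest, with 51.4 to 70.7 M tags, wt limb libraries held 44.1 to 54.5 M and 542 limb libraries 37.5 to 41.4 M. Marker genes of the tissues were checked by the regions at their starts. The distal limb gene Hoxa13 had a fold of 8.80 to 10.1 in DFL and 4.56 to 6.38 in PFL and was called in 1 of 4 FB libraries, and the fold of Hoxd13 was likewise highest in DFL. The starts of the limb mesenchyme genes Prrx1, Msx1 and Twist1 and of the forebrain genes Emx2 and Pax6 were called in all 12 libraries. Of these, Twist1 had a higher fold in the limb (8.80 to 11.6) than in FB (4.57 to 5.14) and Pax6 a higher fold in FB (7.64 to 9.23) than in DFL (5.01 to 7.22) and PFL (4.19 to 4.63), whereas the fold of Prrx1 was higher in FB (6.36 to 7.98) than in the limb (3.07 to 4.77). The proximal gene Meis2 had a higher fold in DFL (7.95 to 12.0) than in PFL (5.03 to 6.87). The starts of markers of blood (Gata1 and Ptprc) and of keratinocytes (Krt14) were called in none of the 12. Of the markers of other cells, the muscle gene Myf5 was called in 2 DFL, 4 PFL and no FB libraries and Trp63 of the ectoderm in 3 DFL, 3 PFL and no FB libraries, while Myod1 of muscle and Kdr of the endothelium were called in all 12. The part of such cells in the tissue differences was not tested.

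At Tbx5 more regions were called in every limb library than in any FB library. In wt DFL 20 and 18 regions were called within 100 kb of the gene and in wt PFL 21 and 19. In 542 there were 7 and 12 in DFL and 11 and 11 in PFL, and in FB there were 5 and 5 in wt and 3 and 5 in 542. Among the 50000 strongest regions of each library, Tbx5 held 2 to 5 in the 8 limb libraries and 0 in all 4 FB libraries. Tbx15 held 16 to 30 called regions in the limb libraries and 10 to 12 in FB, and Tbx18 11 to 20 and 7 to 11, without an overlap for Tbx15 and with an overlap for Tbx18. Tbx2, with 9 to 16 in limb libraries and 9 to 12 in FB, and Tbx3, with 5 to 11 and 3 to 8, overlapped between the tissues. How many other genes separate the limb libraries from those of FB in this way was not counted. Of all tested regions, 37.9% were called in no FB library and 13.9% in no limb library.

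**Figure D1:**
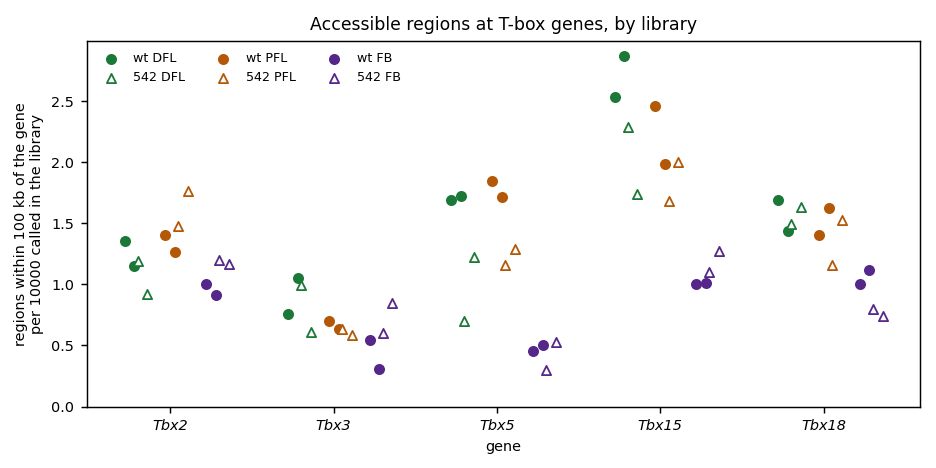
Regions called within 100 kb of each gene per 10000 regions called in the library (vertical axis), for each of the 12 libraries by gene, with tissue by colour, wt as filled circles and 542 as open triangles. At Tbx5 all 4 FB libraries lay at 0.299 to 0.532, below all 8 limb libraries at 0.697 to 1.84.

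The level of a gene was taken as the mean value over its tested regions, floor values included. For Tbx5 this level was 2.00 ± 0.06 in DFL, 1.99 ± 0.04 in PFL and 1.71 ± 0.01 in FB (log2 scale, SD, n = 4 libraries each). The FB values lay below those of both limb tissues without overlap, and DFL and PFL differed by less than their spread. Tbx15 stood at 2.09 ± 0.01 in DFL, 2.01 ± 0.04 in PFL and 1.85 ± 0.02 in FB. It was the only one of the 5 genes with no overlap between any 2 tissues. Its lowest DFL library was at 2.08 and its highest PFL library at 2.04. Tbx18 stood at 2.09 ± 0.03 in DFL, 2.08 ± 0.04 in PFL and 1.90 ± 0.03 in FB, so that again DFL and PFL were not separated. The mean level of Tbx2 was 2.07 ± 0.07 in PFL, 1.98 ± 0.04 in DFL and 1.88 ± 0.06 in FB, and the libraries of PFL and FB did not overlap while those of DFL overlapped with both. For Tbx3, at 2.1 ± 0.13 in PFL, 2.03 ± 0.07 in DFL and 1.93 ± 0.05 in FB, all 3 tissues overlapped. These levels are descriptions, without a test over the members. They include regions that passed the filter only through the tissue in which they were high, at Tbx15 for each tissue. Part of a separation can therefore come from the filter itself. How many other genes separate the tissues by their level was not counted.

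Across the 92 tested regions, 14 were higher in DFL than in PFL (15.2%, against 10.9% of all tested regions) and 14 were lower (15.2%, against 12.2%). The median difference was 0.00 at these regions and over all regions. Of these calls, 7 of the higher and 9 of the lower were at regions that passed the filter only through the group in which they were high, which left 7 (7.61%, against 5.48%) and 5 (5.43%, against 5.56%). The count of higher regions fell to 7 without wt PFL replicate 1, to 8 without any 1 of the 4 FB libraries, and to 9 without wt DFL replicate 1, wt PFL replicate 2 or 542 PFL replicate 1. Against FB, 27 of 92 were higher in DFL (29.3%, against 22.5%) and 5 were lower (5.43%, against 19.7%). In PFL the numbers were the same, with 27 regions higher than in FB (29.3%, against 25.8%) and 5 lower (5.43%, against 20.3%). At regions that passed the filter also without the higher group there were 19 higher (20.7%, against 16.2%) and 2 lower (2.17%, against 6.99%) in DFL, and 14 higher (15.2%, against 17.9%) and 2 lower (2.17%, against 7.46%) in PFL. The lower counts fell to 3 in DFL without any 1 of the 4 DFL libraries, and in PFL to 3 without any 1 of the 4 DFL libraries or 542 PFL replicate 2 and to 2 without wt PFL replicate 2 or 542 PFL replicate 1. With a floor at the 25th percentile 13 were higher and 1 lower in DFL and 16 and 1 in PFL, and without centring 30 and 9 in each. The median difference from FB was 0.08 for DFL and 0.11 for PFL, against 0.01 and 0.03 over all tested regions. Differences of at least 1 were fewer. In that range 2 regions were higher in DFL than in PFL (background 1.32%) and 0 lower (1.11%), 5 were higher in DFL than in FB (6.17%) and 0 lower (5.04%), and 5 were higher in PFL than in FB (6.48%) and 1 lower (5.37%).

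The calls were spread over the 5 genes. Tbx15 had 7 of 28 regions higher in DFL than in PFL (25%) and 3 lower (10.7%), and Tbx18 had 2 of 20 higher (10%) and 5 lower (25%). Over all tested regions the shares were 10.9% higher and 12.2% lower. The counts per gene include regions that passed the filter only through the group in which they were high, among them every lower region of Tbx15. They rest on few regions, and the genes were not compared by a test. Tbx2 had 2 and 3 of 17, Tbx5 2 and 3 of 16, and Tbx3 1 and 0 of 11. Against FB, DFL was higher at 10 regions of Tbx15, 6 each of Tbx5 and Tbx18, 3 of Tbx2 and 2 of Tbx3. PFL was higher than FB at 8 regions of Tbx15, 6 each of Tbx18 and Tbx2, 4 of Tbx5 and 3 of Tbx3. Of all tested regions, 22.5% were higher in DFL than in FB and 25.8% were higher in PFL than in FB. The regions lower than in FB were at Tbx18 (3), Tbx15 (1) and Tbx2 (1) in both limb tissues, and none was at Tbx5 or Tbx3, where 0 regions also passed an unadjusted p of 0.05 in that direction. The background shares were 19.7% lower in DFL and 20.3% lower in PFL.

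**Figure D2:**
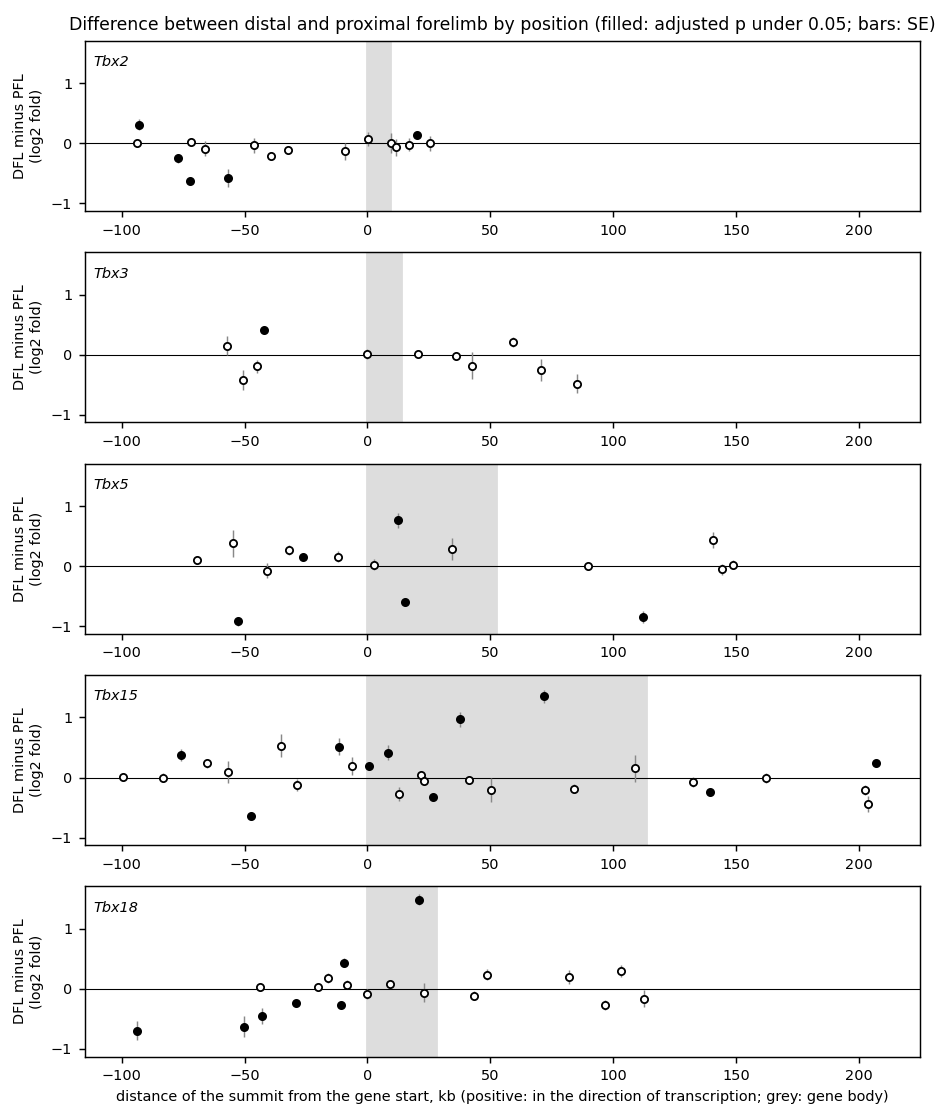
Difference between DFL and PFL (vertical axis, centred log2 fold, with SE) of the 92 tested regions by the distance of their summit from the gene start (horizontal axis, kb), with the gene body in grey and regions under an adjusted p of 0.05 filled. The highest points lie in the bodies of Tbx18 (1.49 at +20.8 kb) and Tbx15 (1.36 at +72.0 kb), and the lowest beside Tbx5 (−0.92 at −52.6 kb). Of the filled points, 7 of 14 higher and 9 of 14 lower passed the filter only through the group in which they were high, Tbx18 +20.8 kb among them. For these the SE and the filling are no test.

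Tbx15 carried a strong distal region in its body. At Tbx15 +72.0 kb (chr3:99311584-99312646), in an intron, the fold was 9.09 and 9.71 in wt DFL and 9.14 and 9.54 in 542 DFL, on 75, 65, 69 and 65 tags. It was 4.34 and 2.56 in wt PFL and 3.37 and 3.40 in 542 PFL, and no region was called there in FB. All 4 DFL libraries thus lay above all PFL libraries in both genotypes. DFL exceeded PFL by 1.36 ± 0.11 (SE, adjusted p = 0.000106) and FB by 1.58 ± 0.11 (SE, adjusted p = 7.37e-06). A second intronic region, Tbx15 +37.6 kb (chr3:99277786-99278529), had folds of 5.94 and 7.61 in wt DFL and 6.14 and 5.09 in 542 DFL. In PFL it was called in 1 of 4 libraries, at 2.94, and in FB in all 4, at 5.02 and 3.12 in wt and 3.29 and 3.54 in 542. DFL lay above all other libraries (lowest DFL 5.09, highest FB 5.02), and the difference between PFL and FB, −0.13 ± 0.13 (SE, adjusted p = 0.462), did not pass the threshold. The differences were 0.97 ± 0.13 (SE, adjusted p = 0.00104) between DFL and PFL and 0.84 ± 0.13 (SE, adjusted p = 0.000832) between DFL and FB. With only regions of a −log10 q of at least 10 both calls were lost, at adjusted p of 0.104 and 0.0587.

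The proximal counterpart at Tbx15 was the upstream region Tbx15 −47.6 kb (chr3:99192464-99194191), in an intron of Wars2, the gene of the mitochondrial tryptophanyl-tRNA synthetase. Its fold was 4.12 and 4.07 in wt PFL and 5.15 and 5.56 in 542 PFL, and it was called in 1 DFL library, at 3.22, and in no FB library. DFL minus PFL was −0.64. Tbx15 +26.5 kb, an intronic region, was called in all 4 PFL libraries, at 4.21 and 3.48 in wt and 3.75 and 3.68 in 542, and in no other of the 12. DFL minus PFL was −0.33. Tbx15 −83.2 kb, in another intron of Wars2, was called in the 4 FB libraries, at 6.42 and 4.68 in wt and 4.31 and 4.46 in 542, and in no limb library, and DFL minus FB was −0.50. With a floor at the 25th percentile this was −0.13.

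Of the starts of Tbx15, the one with the highest value was an internal start at +12.9 kb, with folds of 4.46 and 5.65 in wt DFL, 4.86 and 5.96 in 542 DFL, 6.70 and 5.21 in wt PFL, 6.32 and 5.91 in 542 PFL, 4.31 and 3.68 in wt FB and 4.59 and 4.23 in 542 FB. All 4 PFL libraries lay above all FB libraries, by 0.73 ± 0.12 (SE, adjusted p = 0.00106), and DFL and PFL overlapped, with −0.28 ± 0.12 (SE, adjusted p = 0.149). The difference between DFL and FB was smaller, 0.46 ± 0.12 (SE, adjusted p = 0.014), and its adjusted p was over 0.05 without wt FB replicate 2 or without 542 FB replicate 2, without centring, with quantile normalization, and, at up to 0.524, when only the stronger regions were kept. The other tested start of Tbx15, at +0.6 kb, was singled out after its values were seen. Its folds were 3.58 to 4.01 in DFL, 2.35 to 3.40 in PFL and 3.15 to 3.52 in 3 FB libraries. DFL exceeded PFL by 0.20 ± 0.06 (SE, adjusted p = 0.0447) and FB by 0.26 ± 0.06 (SE, adjusted p = 0.00764), at values close to the floor. PFL minus FB was 0.06 ± 0.06 (SE, adjusted p = 0.45). The strongest region in reach of Tbx15, at −99.3 kb, lies in an exon at the start of Wars2, with folds of 14.7 to 18.6 in all 12 libraries and a difference of 0.01 ± 0.05 (SE, adjusted p = 1) between DFL and PFL. A region 50.1 kb downstream of the start, Tbx15 +50.1 kb, had folds of 4.53 to 7.18 in the limb libraries and 3.40 to 5.32 in FB, with PFL higher than FB by 0.76 ± 0.20 (SE, adjusted p = 0.0122). This call was lost without wt FB replicate 2 and without 542 FB replicate 2. Tbx15 −65.4 kb, in an intron of Wars2, was open in both limb segments, at 4.25 and 4.48 in wt DFL, 4.70 and 5.10 in 542 DFL, 4.64 and 4.22 in wt PFL and 3.56 in 1 of 2 542 PFL libraries, and uncalled in FB, with DFL higher than FB by 0.56 ± 0.08 (SE, adjusted p = 0.000392), a call that was lost with only the 50000 strongest regions of each library (adjusted p = 0.262).

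Tbx18 had the largest single difference between the limb segments among the 92. Tbx18 +20.8 kb (chr9:87709955-87710823), in an intron, had folds of 8.92 and 9.20 in wt DFL and 8.02 and 10.3 in 542 DFL, on 96, 66, 59 and 77 tags. In PFL it was called once in each genotype, at 3.06 in wt and 3.20 in 542, and in FB in none. The difference was 1.49 against PFL and 1.53 against FB. This region and Tbx15 +72.0 kb, both intronic, distal and uncalled in FB, were the 2 regions over 1 in this direction.

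Other regions of Tbx18, all upstream of its start, were higher in PFL than in DFL. Tbx18 −42.8 kb (chr9:87773116-87774837) had folds of 7.90 and 6.22 in wt PFL and 6.42 and 6.44 in 542 PFL, against 6.61 and 5.11 in wt DFL and 5.26 and 3.98 in 542 DFL, and was uncalled in FB. PFL exceeded FB by 1.164 ± 0.13 (SE, adjusted p = 0.000106) and DFL exceeded FB by 0.72 ± 0.13 (SE, adjusted p = 0.00196). The latter call was lost with a floor at the 25th percentile, with only regions of a −log10 q of at least 10 and with only the 50000 strongest regions of each library, at an adjusted p of up to 0.47. The difference between DFL and PFL, whose folds overlapped, was −0.45 ± 0.13 (SE, adjusted p = 0.0371) and was lost in 9 of the 12 fits that left out 1 library. At the end of the 100 kb window, a region singled out after its values were seen, Tbx18 −93.7 kb (chr9:87824678-87825728), had folds of 5.15 and 5.58 in wt PFL, 12.4 and 6.79 in 542 PFL, 3.81 and 4.55 in wt DFL and 4.98 and 4.91 in 542 DFL and was uncalled in FB, with PFL higher than FB by 1.23 ± 0.15 (SE, adjusted p = 0.000209). Closer to the gene, Tbx18 −10.6 kb was called in the 4 PFL libraries only, at 3.98 and 3.43 in wt and 3.94 and 3.10 in 542, and DFL minus PFL was −0.26. With a floor at the 25th percentile it no longer passed the filter on low values.

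Tbx18 −9.6 kb (chr9:87740213-87741171), next to the preceding region, had the order FB, DFL, PFL. Its fold was 12.0 and 11.8 in wt FB and 10.3 and 11.2 in 542 FB, 7.07 and 6.18 in wt DFL and 7.14 and 7.34 in 542 DFL, and 4.39 and 4.73 in wt PFL and 5.53 and 4.96 in 542 PFL. The 3 tissues did not overlap. PFL minus FB was −1.0 ± 0.07 (SE, adjusted p = 1.02e-05), DFL minus FB was −0.56 ± 0.07 (SE, adjusted p = 0.000309), and DFL was higher than PFL by 0.44 ± 0.07 (SE, adjusted p = 0.0033). On the other side of the gene, Tbx18 +48.8 kb (chr9:87681785-87683014) was a limb region, with folds of 7.56 and 8.31 in wt DFL, 9.13 and 8.81 in 542 DFL, 7.08 and 5.95 in wt PFL and 8.17 and 6.39 in 542 PFL, against 4.09 and 3.40 in wt FB and 2.41 and 3.08 in 542 FB. DFL exceeded FB by 1.38 ± 0.09 (SE, adjusted p = 5.53e-06) and PFL by 1.15 ± 0.09 (SE, adjusted p = 1.48e-05), and the difference between the limb segments, 0.23 ± 0.09 (SE, adjusted p = 0.107), did not pass the threshold. The start of Tbx18 itself (−0.1 kb) was open in every library, at folds of 7.92 to 10.5, with differences of −0.09 ± 0.08 (SE, adjusted p = 0.524) between DFL and PFL and −0.04 ± 0.08 (SE, adjusted p = 0.806) between DFL and FB. At Tbx18, therefore, the tested tissue differences named here were on both sides of the start and not at it. Those named in the gene body (+20.8 kb and +22.9 kb) passed the filter only through the higher group and carry no test. In FB, Tbx18 +112.6 kb had folds of 5.79 and 4.34 in wt and 5.85 and 4.95 in 542, and DFL minus FB was −0.58 ± 0.14 (SE, adjusted p = 0.0106). The intronic Tbx18 +22.9 kb had 3.74 and 6.10 in wt FB and 6.21 and 4.92 in 542 FB and was called in 1 limb library, at 3.70, with PFL minus FB of −0.50. The call at +112.6 kb was lost with a floor at the 25th percentile and with only the 50000 strongest regions of each library.

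**Figure D3:**
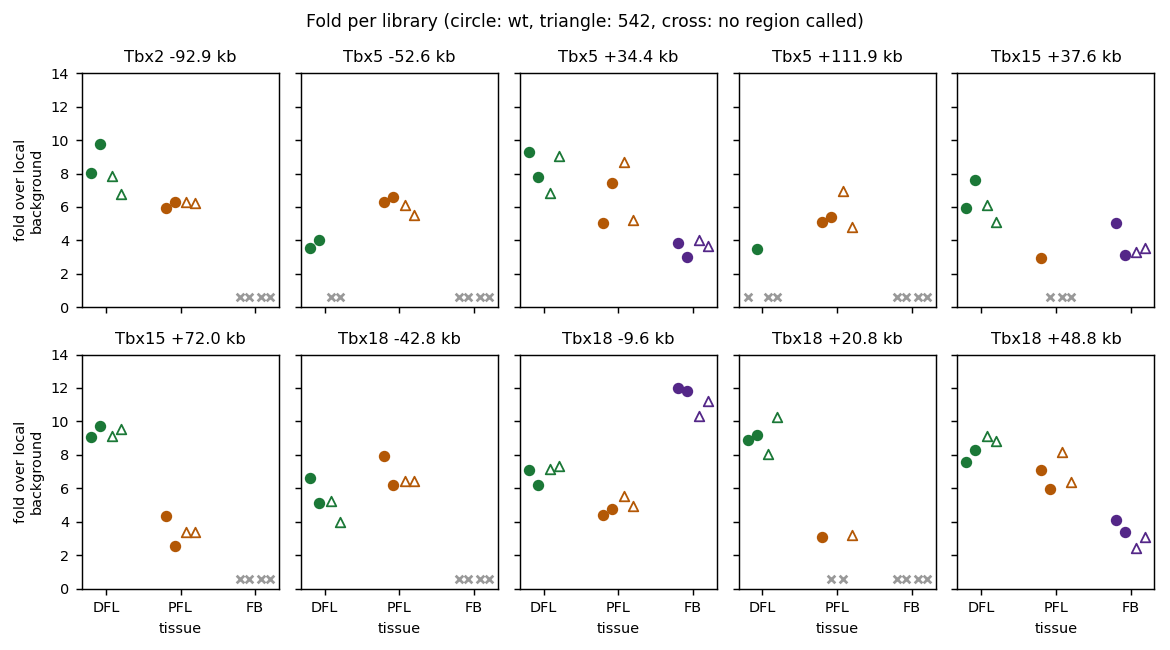
Fold over the local background (vertical axis) in each of the 12 libraries by tissue (horizontal axis) at the 10 regions whose sequences are given, with wt as circles, 542 as triangles and libraries without a called region as crosses. Tbx15 +72.0 kb and Tbx18 +20.8 kb stand at 8.02 to 10.3 in DFL and at most 4.34 in PFL, while Tbx18 −9.6 kb is highest in FB, at 10.3 to 12.0.

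The largest differences between the limb segments at Tbx5 were in its flanks, at regions higher in PFL. Tbx5 −52.6 kb (chr5:119779304-119780958), between Tbx3 and Tbx5, had folds of 6.29 and 6.62 in wt PFL and 6.12 and 5.52 in 542 PFL, on 58, 81, 47 and 34 tags. In DFL it was called in both wt libraries, at 3.53 and 4.03, and in neither 542 library, and it was uncalled in FB. In the earlier wt DFL library, which was not part of the tests, its fold was above that of every PFL library. DFL minus PFL was −0.92 ± 0.08 (SE, adjusted p = 0.000113) and PFL exceeded FB by 1.03 ± 0.08 (SE, adjusted p = 9.64e-06). Tbx5 +111.9 kb (chr5:119944141-119945131), beyond the end of the gene, was similar. Its fold was 5.08 and 5.43 in wt PFL and 6.93 and 4.79 in 542 PFL, and it was called in 1 DFL library, at 3.5, and in no FB library, with DFL minus PFL at −0.85.

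Within Tbx5, the intronic region at +34.4 kb (chr5:119866368-119867389) was shared by the limb segments. Its fold was 9.32 and 7.78 in wt DFL, 6.82 and 9.06 in 542 DFL, 5.03 and 7.46 in wt PFL and 8.71 and 5.19 in 542 PFL, and 3.85 and 2.98 in wt FB and 4.05 and 3.69 in 542 FB. All 8 limb libraries lay above the 4 FB libraries, with DFL higher than FB by 1.27 ± 0.19 (SE, adjusted p = 0.000588) and PFL by 0.98 ± 0.19 (SE, adjusted p = 0.00237), whereas DFL and PFL overlapped and differed by 0.28 ± 0.19 (SE, adjusted p = 0.339). The call for PFL was lost with only regions of a −log10 q of at least 10 and with only the 50000 strongest regions of each library, at an adjusted p of up to 0.148. A further intronic region, 12511 bases from the start, had folds of 5.70 and 6.55 in wt DFL and 8.05 and 5.86 in 542 DFL, and of 3.47 to 4.55 in the 3 PFL libraries and 4.20 to 4.69 in the 4 FB libraries where it was called. DFL was higher than PFL by 0.76 ± 0.13 (SE, adjusted p = 0.00357) and than FB by 0.70 ± 0.13 (SE, adjusted p = 0.00239), and the first of these calls was lost with only regions of a −log10 q of at least 10 (adjusted p = 0.0645). Tbx5 +140.6 kb, the most distant of the named regions, was called in all 4 DFL libraries, at 6.89 and 7.0 in wt and 4.06 and 4.53 in 542, in 3 PFL libraries and in 1 FB library, and DFL exceeded FB by 0.80 ± 0.14 (SE, adjusted p = 0.00159).

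The starts of Tbx5 were weakly accessible in comparison. Within 1 kb of an annotated start 4 consensus regions were called, in 3 DFL and 3 PFL libraries and in no FB library, with folds of 2.33 to 3.93. One of them, at +2.5 kb, passed the filter, and its difference between DFL and FB was 0.10 ± 0.09 (SE, adjusted p = 0.419). The highest fold at a start was 5.57 for Tbx2, 6.70 for Tbx15, 10.5 for Tbx18 and 12.8 for Tbx3. Tbx5 was thus the only one of the 5 genes with no start called in FB, in these 4 libraries. How many other genes have no start called in FB was not counted.

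Tbx2 differed between limb and forebrain at its start and far upstream. At the start (+0.0 kb) the fold was 5.51 and 5.29 in wt DFL, 5.22 and 5.57 in 542 DFL, 4.47 and 5.29 in wt PFL, 5.38 and 4.55 in 542 PFL, 3.19 and 3.12 in wt FB and 4.47 and 3.33 in 542 FB. It was higher in DFL than in FB by 0.68 ± 0.11 (SE, adjusted p = 0.00122) and in PFL by 0.61 ± 0.11 (SE, adjusted p = 0.00215), although 542 FB replicate 1 and the lowest PFL library were both at 4.47, and both calls were lost when only regions with a −log10 q of at least 10 were kept. Tbx2 −92.9 kb (chr11:85739277-85740207), in an intron of Bcas3, had folds of 8.00 and 9.78 in wt DFL, 7.82 and 6.78 in 542 DFL, 5.93 and 6.29 in wt PFL and 6.30 and 6.23 in 542 PFL, and was uncalled in FB. DFL exceeded FB by 1.36 ± 0.09 (SE, adjusted p = 7.22e-06) and PFL exceeded FB by 1.05 ± 0.09 (SE, adjusted p = 3.03e-05). DFL was also higher than PFL, in all 4 libraries, by 0.31 ± 0.09 (SE, adjusted p = 0.0447), a call that was lost in 10 of the 12 fits without 1 library. Also in introns of Bcas3, Tbx2 −72.4 kb was proximal, with 5.01 and 4.31 in wt PFL and 4.96 and 4.19 in 542 PFL against 3.22 and 3.15 in wt DFL and no call in 542 DFL or FB, and DFL minus PFL of −0.62. Downstream, Tbx2 +25.6 kb was called in the 4 FB libraries only, at 3.27 and 4.11 in wt and 6.58 and 4.31 in 542, with DFL minus FB of −0.39. The other strong regions near Tbx2, at +16.7 kb and +11.8 kb, were called in all 12 libraries and passed no tissue test. At +16.7 kb the folds before centring were 7.97 to 10.1 in FB, 5.61 to 7.55 in DFL and 5.34 to 7.86 in PFL, so that FB lay above the limb without overlap.

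Tbx3 had the fewest regions and the most strongly accessible start of the 5 genes. At the start (+0.0 kb) the fold was 11.2 and 12.8 in wt DFL, 10.4 and 10.9 in 542 DFL, 11.1 and 12.0 in wt PFL, 11.3 and 8.99 in 542 PFL, 11.7 and 10.0 in wt FB and 10.8 and 9.75 in 542 FB. The folds of the tissues overlapped, and after centring the start was higher in DFL than in FB by 0.25 ± 0.08 (SE, adjusted p = 0.0418) and in PFL by 0.24 ± 0.08 (SE, adjusted p = 0.0412). Without centring neither difference passed the threshold, and they were lost in 5 and 6 of the 12 fits without 1 library. Tbx3 −41.9 kb, in an intron of the long noncoding RNA gene Tbx3os1 that runs upstream of Tbx3, was called in DFL only, at 4.54 and 4.38 in wt and 3.87 and 3.97 in 542, with DFL minus PFL of 0.41. With a floor at the 25th percentile the difference was 0.044. Tbx3 −50.5 kb, in the same gene, was called in all 8 limb libraries, at 3.13 to 6.14, and in no FB library, with PFL higher than FB by 0.56 ± 0.17 (SE, adjusted p = 0.024), and this call was lost in 5 of the 12 fits without 1 library. The intergenic Tbx3 +70.7 kb, between Tbx3 and Tbx5, was called in all 12 libraries, at folds of 3.87 to 9.01, and passed no tissue test. Of the regions called at Tbx3 and Tbx5, 7 lay within 100 kb of both genes, 5 of them tested, and each was given to the nearer gene.

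**Figure D4:**
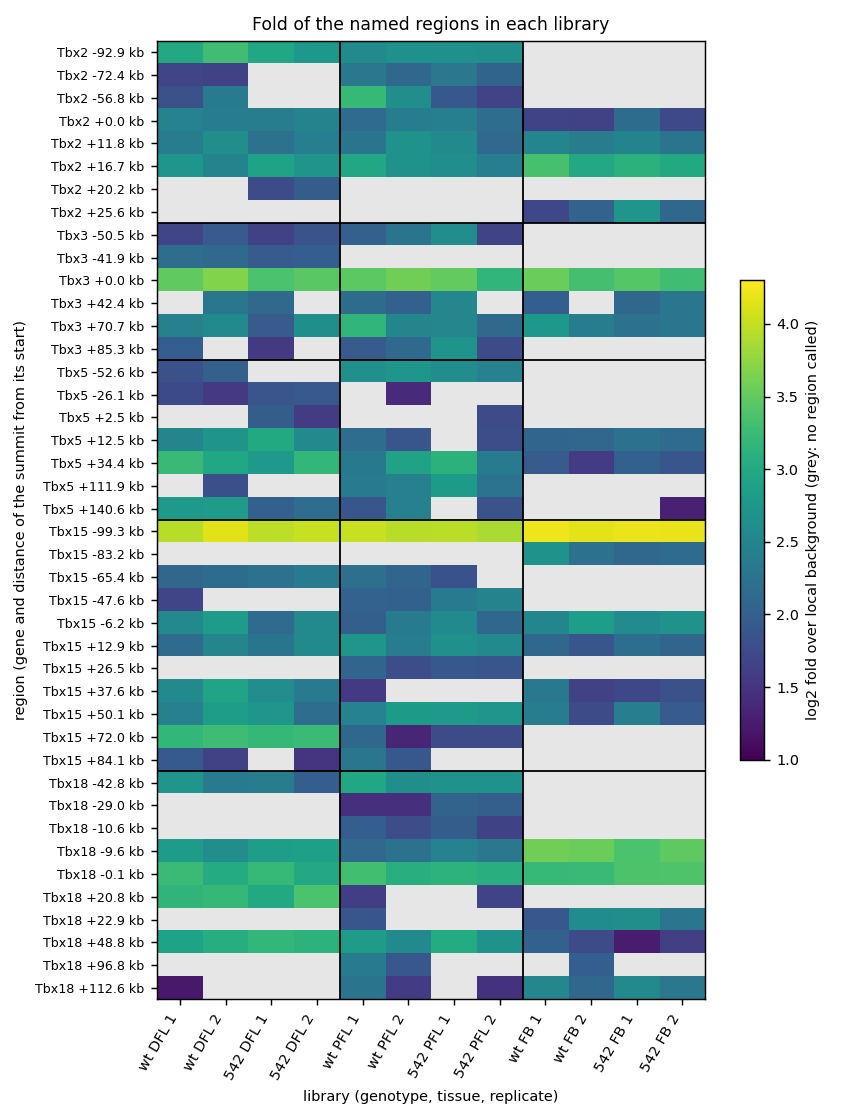
log2 fold over the local background (colour) of the 42 named regions (rows, by gene and distance from its start) in the 12 libraries (columns, by tissue and genotype), with grey where no region was called. The starts of Tbx3 and Tbx18 are coloured in all 12 columns, while Tbx5 −52.6 kb and Tbx2 −92.9 kb are grey in all 4 FB columns.

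By position, 6 of the 92 tested regions lay within 1 kb of a start of the gene, 16 elsewhere in its body and 70 in the flanks. In all 12 libraries 15 were called (16.3%, against 19.7% of all tested regions), 52 were called in no FB library (56.5%, against 37.9%) and 4 in no limb library (4.35%, against 13.9%). The regions called in every library of 1 tissue and in none of the others were 2 for DFL (Tbx3 −41.9 kb and, singled out after its values were seen, Tbx15 −35.1 kb; 2.17%, against 2.45%), 4 for PFL (4.35%, against 2.20%) and 2 for FB (Tbx15 −83.2 kb and Tbx2 +25.6 kb; 2.17%, against 10.5%). In all 8 limb libraries and in no FB library 7 were called (7.61%, against 6.98%). The last region inside the limit of 100 kb and the first outside it were 93750 and 100118 bases from Tbx2, with DFL minus FB of −0.07 and 0.72. They were 71246 and 106829 bases from Tbx3 (0.07 and 0.00), 96245 and 139017 from Tbx5 (0.07 and 0.24), 99290 and 105425 from Tbx15 (−0.03 and 1.83) and 93659 and 101748 from Tbx18 (0.53 and 0.32).

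The effect of allele 542 at these genes was small in comparison. In DFL, 2 of 92 regions were higher in 542 than in wt (background 1.80%) and 0 were lower (1.58%), with 5 lower at an unadjusted p under 0.05 in limma. In PFL, 2 were higher (2.03%) and 3 were lower (2.50%). In FB, 0 were higher (1.25%) and 0 lower (1.14%), with 3 and 1 at an unadjusted p under 0.05. The median difference was 0.00 in each tissue, over a range of −0.60 to 0.49 in DFL, −1.07 to 0.83 in PFL and −0.36 to 0.63 in FB. These shares are close to the background of the whole table. Of the 7 calls, 5 were at regions that passed the filter only through the group in which they were high. With so few calls, leaving out 1 library changed the counts over 1 to 4 regions higher in DFL, and over 1 to 3 higher and 0 to 6 lower in PFL, with 4 in DFL without 542 DFL replicate 1 and 6 in PFL without wt PFL replicate 2, against 0 lower in PFL without any 1 of the 4 FB libraries and 1 without any 1 of the 542 DFL or 542 PFL libraries.

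The largest of the genotype differences was at Tbx2 −56.8 kb (chr11:85775337-85776017), in an intron of Bcas3. Its fold was 9.30 and 6.17 in wt PFL and 3.76 and 3.20 in 542 PFL, and 3.52 and 5.08 in wt DFL, with no call in 542 DFL or FB. The difference in PFL was −1.07 ± 0.21 (SE, adjusted p = 0.0237), and 7 of 12 fits without 1 library lost it. Tbx18 −29.0 kb was the reverse, with 4.16 and 3.99 in 542 PFL against 2.73 and 2.71 in wt PFL and no call elsewhere, and a difference of 0.47, in which both wt PFL libraries stand at the floor. Without 542 PFL replicate 1 or replicate 2 it no longer passed the filter on low values, and with a floor at the 25th percentile the difference was 0.10. Tbx15 −47.6 kb, shown above as a proximal region, was higher in 542 PFL by 0.44 ± 0.09 (SE, adjusted p = 0.0358), and Tbx15 +84.1 kb and Tbx18 +96.8 kb were lower, with differences of −0.49 and −0.53. The call at Tbx15 −47.6 kb was not kept in 11 of the 12 fits without 1 library. In DFL, Tbx2 +20.2 kb was called in the 542 libraries, at 3.42 and 3.91, and in neither wt library, a difference of 0.27, and all other 10 libraries stood at the floor. In the earlier wt DFL library it was called, at 4.44. Tbx5 −26.1 kb had folds of 3.64 and 3.79 in 542 and 3.33 and 2.93 in wt, a difference of 0.27.

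**Figure D5:**
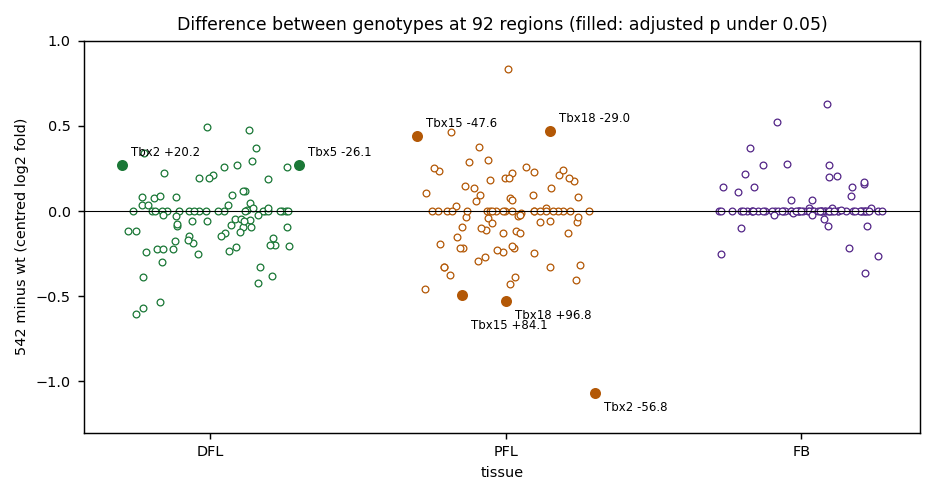
Difference between 542 and wt (vertical axis, centred log2 fold) of the 92 tested regions in each tissue (horizontal axis), with regions under an adjusted p of 0.05 filled and named. Points lie on both sides of 0 in all 3 tissues, with 2 regions filled in DFL, 5 in PFL and 0 in FB. Filled points include regions that passed the filter only through the group in which they were high, for which the filling is no test.

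The difference between the limb segments was compared between genotypes by an interaction term, which 2 of 92 regions passed (background 2.77%), both of which had passed the filter only through 542 libraries of 1 tissue. At Tbx15 +72.0 kb and Tbx18 +20.8 kb the DFL folds of wt and 542 overlapped. At Tbx15 −47.6 kb, Tbx2 −56.8 kb and Tbx18 −93.7 kb the PFL folds of the genotypes did not overlap, and Tbx5 −52.6 kb was called in DFL in wt only. With 2 libraries in each group such a separation can readily arise between like groups. Its share over all regions was not counted. The number of called regions differed more. At Tbx5 the 542 libraries had fewer than the wt libraries in both segments, and at Tbx15 they had 23 and 17 in DFL and 16 and 17 in PFL against 30 and 30, and 28 and 22, in wt. Per 10000 regions called in the library, Tbx5 had 0.697 and 1.23 in 542 DFL against 1.69 and 1.72 in wt DFL. In PFL it had 1.159 and 1.29 in 542 against 1.84 and 1.71 in wt. In lists of equal length, with the strongest regions of each library, Tbx5 held 2 and 4 in 542 DFL against 5 and 4 in wt DFL. For PFL these were 4 and 3 in 542 against 5 and 5 in wt. The mean level of Tbx5 overlapped between the genotypes in both segments. It was 1.94 and 2.00 in 542 DFL against 2.08 and 1.97 in wt DFL, and 2.03 and 1.94 in 542 PFL against 1.99 and 2.01 in wt PFL. The 542 limb libraries are also shallower than those of wt. The part of depth in the difference in called regions was not tested, and how many other genes show such a difference was not counted.

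Motif matches were counted in the 300 bases around each summit, on both strands, for the letters GGTGTGA (T-box), CAATAAA (HOX13), CTGTCA (MEIS), TGATTTAT (PBX-HOX), TAATTA (homeodomain), AACAATG (SOX), CAGCTG (bHLH, the E-box) and AGGGGGC (CTCF). The letters of different motifs can overlap in a window. The E-box was present in 19 of the 92 windows (20.7%, against 25.4% of all 137405 tested regions) and the MEIS letters in 18 (19.6%, against 22.2%). The T-box letters were present in 2 windows (2.17%, against 4.37%) and the HOX13 letters in 4 (4.35%, against 7.40%). Of the 14 regions higher in DFL than in PFL, 0 held the HOX13 letters, which were in 15.8% of all regions higher in DFL, and 2 held the homeodomain letters (14.3%, against 22.5%). Of the 14 regions lower in DFL than in PFL, 6 held the E-box (42.9%, against 34.6% of all such regions) and 4 the MEIS letters (28.6%, against 24.7%). Among these, 7 of the higher and 9 of the lower passed the filter only through the group in which they were high. The shares rest on few regions and were not tested. In the printed sequences, Tbx15 +72.0 kb, Tbx15 +37.6 kb and Tbx18 −9.6 kb each held 1 MEIS match and Tbx18 −42.8 kb held 2, Tbx5 +111.9 kb held 1 each of MEIS, E-box and CTCF, Tbx2 −92.9 kb held 1 E-box, Tbx18 +48.8 kb held 1 CTCF match, and Tbx18 +20.8 kb, Tbx5 −52.6 kb and Tbx5 +34.4 kb held none of the 8. A missing match says only that these letters are not in the window.

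The other T-box genes of the mouse served as a list of the same family. At 12 of them (Tbxt, Tbx1, Tbx4, Tbx6, Tbx10, Tbx19, Tbx20, Tbx21, Tbx22, Tbr1, Eomes and Mga) 165 of 284 consensus regions were tested, 0 of them at Mga, which lies on the part of chromosome 2 that was left out. DFL was higher than PFL at 17 of the 165 (10.3%, against 10.9%) and lower at 14 (8.48%, against 12.2%), higher than FB at 34 (20.6%, against 22.5% of all tested regions) and lower at 27 (16.4%, against 19.7%), and PFL was higher than FB at 37 (22.4%, against 25.8%) and lower at 29 (17.6%, against 20.3%). The counts at single genes rest on few regions, as for Tbx4, the hindlimb counterpart of Tbx5 and neighbour of Tbx2, with 7 of 11 higher in DFL than in FB and 1 lower. Beside these, the 5 limb genes together had 27 of 92 higher in DFL than in FB (29.3%) and 5 lower (5.43%). The counts for PFL against FB were the same, though not at the same regions throughout. They include regions that passed the filter only through the group in which they were high. The difference between the lists was not tested.

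The genes whose level was most like that of each member over the 12 libraries, among 17745 to 17751 genes over 500 kb away with at least 5 tested regions, were Ostf1 (Pearson's r = 0.992) and Gm47995 (0.989) for Tbx5, Trnt1 (0.986) and Nfatc1 (0.984) for Tbx15, Fam198b (0.984) and Psd3 (0.982) for Tbx18, Fpgs (0.972) and Mesp2 (0.965) for Tbx3, and Glt28d2 (0.965) and Stx8 (0.958) for Tbx2. The 12 points of each r share 3 tissues and the centring of the libraries, and high values are to be found among so many genes, so that they are given as a description.

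The earlier wt DFL library, the deepest at an estimated 78.0 M tags, was not part of the tests. It held 118 regions at the 5 genes, with 33 at Tbx15, 31 at Tbx5, 20 at Tbx2, 18 at Tbx18 and 16 at Tbx3. At the distal regions its fold was 10.3 at Tbx15 +72.0 kb, 11.3 at Tbx18 +20.8 kb and 6.03 at Tbx15 +37.6 kb, near the other DFL libraries. It was 15.5 at Tbx5 +34.4 kb and 13 at Tbx18 +48.8 kb, above the highest of the other DFL libraries (9.32 and 9.13). At Tbx5 −52.6 kb, which was higher in PFL than in DFL in the test without this library, it was 7.94, above all 4 PFL libraries, and at Tbx2 −56.8 kb 8.03. With this library included in wt DFL, the calls between the limb segments at Tbx2 −92.9 kb and Tbx2 −56.8 kb were lost and Tbx5 +140.6 kb became higher in DFL than in PFL, by 0.53.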

How the data were processed

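ATAC-seq of 12 libraries (3 tissues, 2 genotypes, 2 replicates) and 1 earlier wt DFL library was read from the peak files deposited by the authors. Per the methods of the study, the authors trimmed reads with Cutadapt, mapped them with bowtie2 to mm10 or to a 542 mutant genome, kept concordant pairs of sufficient quality outside mitochondrial DNA (bamtools), removed duplicates (picard) and called peaks with MACS2 in each library without a control. The deposited files give a fold (ratio) over the local background, a −log10 p-value, a −log10 q-value and a score, which was not used. Tags under each summit were recovered from the fold and p by a Poisson model with a tolerance of 0.001. Duplicate-free tags leave counting error only in part, since no molecular identifiers were used.

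Regions of the 12 libraries were joined where they overlapped by at least 1 bp, with the highest fold in each. log2 folds were centred on the median of 27032 regions called in all 12. Uncalled and lower values were set to the floor, the highest 5th percentile of any library (log2 1.68). Regions above it in at least 2 libraries were tested. Chromosome 2 from 75 Mb, which holds the insertion, and other scaffolds were left out. limma 3.58.1 (R 4.3.3) was fitted with 6 group means and a mean trend, and p-values were adjusted by Benjamini-Hochberg over 137405 regions. The step was tested on simulated data for DFL against PFL over 137405 regions. There 74 of 100 changes of 1 and 99 of 100 changes of 2 were recovered, beside 38 false calls among 211. All changes were placed at regions with a mean more than 0.5 above the floor, so that recovery at weaker regions was not measured. Groups came from the labels, and with pools of embryos as replicates the p-values measure the spread between these libraries. Same-numbered libraries did not deviate together (r −0.03 to 0.01), so the numbers were not used as pairs.

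Named regions were those at gene starts, the 3 highest of each gene and the called regions with the smallest adjusted p (up to 2 a direction for each gene and tissue comparison, up to 3 for each genotype comparison), and any other is said to be chosen after its values were seen. The members and lists were chosen with earlier results of these data known. Some marker genes are not reported here. Alternatives were other centring, floors, filters, regions, windows and libraries, a replicate block, and a minimum change added after seeing the data. Sequences were read from the RefSeq copy of GRCm38, the build of mm10. Tables were handled in pandas 2.3.3 (Python 3.11.15, numpy 2.4.6), Poisson values came from scipy 1.17.1 and figures from matplotlib 3.10.9.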

Additional observations from a re-analysis of the deposited data

Results flagged for a closer look

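The difference between the limb segments differed between the genotypes at 2 regions by the interaction term of limma (Benjamini-Hochberg adjusted). At Tbx5 −26.1 kb it was 0.27 higher in 542 than in wt, and at Tbx18 −29.0 kb it was −0.47. Both have folds close to the floor, passed the filter on low values only through 542 libraries of 1 tissue and left the test when the filter required 4 libraries, so that no p is given.

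The earlier wt DFL library, which entered no comparison, held 16 of its 118 regions at these genes without a counterpart in the other 12 libraries, at folds of 1.96 to 4.18. They were 6 at Tbx15, 5 at Tbx5, 4 at Tbx3 and 1 at Tbx2. This library is deeper than the others, and the part of depth was not tested.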

How the results depend on the processing

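The counts of regions past the threshold of limma are given as higher and lower, beside 14 and 14 for DFL against PFL, 27 and 5 for DFL against FB, 27 and 5 for PFL against FB, and 1 and 1 for the interaction, with 542 against wt at 2 and 0 (DFL), 2 and 3 (PFL) and 0 and 0 (FB). Where a cause is not named below, the cause was not tested. With a floor at the 25th percentile, DFL against PFL gave 6 and 9, DFL against FB 13 and 1, PFL against FB 16 and 1, 542 in DFL 1 higher, 542 in PFL 1 and 1, and the interaction 0 lower. With only regions of a −log10 q of at least 10, fewer regions were left and the counts were 5 and 4, 8 and 1, 7 and 1, for 542 0 and 1 in DFL but 1 and 0 in PFL, with the interaction at 0 higher. With the 50000 strongest regions of each library they were 7 and 5, 10 and 1, 11 and 1, for 542 again 0 and 1 in DFL as well as in PFL, with the interaction at 0 and 0. Without a filter on low values DFL against PFL had 8 higher, PFL against FB 3 lower, 542 in DFL 1 and 1, 542 in PFL 1 and 0, with 1 higher in FB. Within 50 kb, which holds fewer regions, DFL against PFL had 7 lower, DFL against FB 3 lower, PFL against FB 15 and 3, and 542 in PFL 1 lower. Without centring the split was 19 and 13 for DFL against PFL, 30 and 9 for DFL against FB, 30 and 9 for PFL against FB, 1 and 2 for 542 in DFL, 1 higher for 542 in PFL, 1 higher in FB and 0 higher for the interaction. Quantile normalization gave 1 and 0 for 542 in DFL, 2 and 1 in PFL and 1 higher in FB. A filter of 4 libraries gave 0 higher for 542 in DFL, 0 and 1 for 542 in PFL, and 0 and 0 for the interaction. With the earlier library 542 in PFL had 1 lower. The replicate block, with numbers that only name the libraries, gave 1 higher for 542 in DFL, 1 higher in PFL and 0 higher for the interaction. A minimum change of 1, chosen after seeing the data, left 2 and 0, 5 and 0, 5 and 1, 0 higher for 542 in DFL, 0 and 1 for 542 in PFL, and 0 and 0 for the interaction.

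Leaving out 1 library at a time, DFL against PFL ranged over 7 to 15 higher and 11 to 17 lower, DFL against FB over 18 to 30 and 3 to 6, PFL against FB over 21 to 30 and 2 to 5, 542 in DFL over 1 to 4 and 0 to 1, 542 in PFL over 1 to 3 and 0 to 6, 542 in FB over 0 to 1 and 0 to 1, and the interaction over 0 to 3 and 1 to 2. DFL against FB had 3 lower without any 1 of the 4 DFL libraries. PFL against FB had 3 lower without any 1 of the 4 DFL libraries or 542 PFL replicate 2, and 2 without wt PFL replicate 2 or 542 PFL replicate 1. No named region changed its direction under any alternative. Of 72 calls at the 42 named regions, 46 were kept in every fit without 1 library, and 22 of these also under every alternative in which the region was tested. At regions that passed the filter also without the group in which they were high, these numbers were 39, 27 and 16. The depth of 37.5 to 70.7 M tags limits the weak regions, whose differences rest on the floor.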
